A study of Homo sapiens with 6 samples.

Results

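The genes of the cytoplasmic and nuclear mRNA decay machinery were examined in HCT116 cells, a human colorectal carcinoma line, after overexpression of the RNA-binding protein RBM47. Members were the protein-coding genes of the count table whose symbols name subunits of the deadenylation complexes, the decapping complex and 5′ to 3′ exonucleases, the RNA exosome and the nonsense-mediated decay (NMD) factors, with a mean of at least 10 counts per library. The rule found 52 of the 28491 genes in the table: 16 of deadenylation, 13 of decapping with 5′ to 3′ decay, 13 of the exosome with the DIS3 paralogs, and 10 of NMD. All 52 were among the 16260 genes tested, and the lowest mean was 409.7 counts, in PAN2, so the floor removed no matching gene. The series held 3 control libraries (NC, control plasmid) and 3 libraries of cells transfected with an RBM47 plasmid (RBM47-OE). Lipofectamine 2000 was used in both groups, cells were taken 48 h later, and poly(A) RNA was sequenced. The labels name the plasmid as pcDNA3.1-3xFlag-RBM47 and the methods name pIRES-hrGFP-1a, and RBM47 reads hold transcripts of the plasmid together with those of the cells' own gene. The promoter of the plasmid and the share of transfected cells are not given in the sources used here. Nothing states that the 3 libraries of a group came from separate cultures, so the p-values measure the spread between these libraries, which may be technical.

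Most mRNA decay begins with shortening of the poly(A) tail. The PAN2-PAN3 complex and the CCR4-NOT complex remove the tail, after which the message is either decapped by DCP2 and degraded from the 5′ end by XRN1, or degraded from the 3′ end by the exosome. NMD is a surveillance route that acts on messages whose translation stops early, and it feeds its substrates into the same enzymes.

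The members differ widely in the base composition of their exons, and the fold changes given further on ran against it. For each class, the members with the lowest and the highest exonic GC content are shown as 90 bases from the centre of the longest coding exon of the canonical transcript, read 5′ to 3′ on the gene's strand from the GRCh38 sequence and GENCODE 44, with G and C in capitals. EXOSC5 takes the place of EXOSC4, whose sequence is not printed. The stretches lie at the following positions: CNOT6L (chr4:77728923-77729012, minus strand, 39 G or C bases), CNOT3 (chr19:54148297-54148386, plus strand, 64 G or C bases), XRN1 (chr3:142311619-142311708, minus strand, 42 G or C bases), EDC4 (chr16:67880729-67880818, plus strand, 63 G or C bases), EXOSC8 (chr13:37008072-37008161, plus strand, 25 G or C bases), EXOSC5 (chr19:41397210-41397299, minus strand, 56 G or C bases), UPF2 (chr10:12029090-12029179, minus strand, 36 G or C bases) and UPF1 (chr19:18832280-18832369, plus strand, 62 G or C bases).
CNOT6L: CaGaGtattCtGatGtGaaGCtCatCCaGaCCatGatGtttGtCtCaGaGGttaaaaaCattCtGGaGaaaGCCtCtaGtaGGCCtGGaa
CNOT3: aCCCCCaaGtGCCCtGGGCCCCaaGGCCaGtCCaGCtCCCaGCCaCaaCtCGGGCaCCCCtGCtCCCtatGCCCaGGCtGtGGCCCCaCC
XRN1: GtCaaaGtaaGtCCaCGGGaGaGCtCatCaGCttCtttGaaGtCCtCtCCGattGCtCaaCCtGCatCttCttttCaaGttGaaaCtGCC
EDC4: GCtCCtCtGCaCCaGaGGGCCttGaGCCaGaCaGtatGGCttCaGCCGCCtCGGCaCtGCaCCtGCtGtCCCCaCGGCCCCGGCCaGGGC
EXOSC8: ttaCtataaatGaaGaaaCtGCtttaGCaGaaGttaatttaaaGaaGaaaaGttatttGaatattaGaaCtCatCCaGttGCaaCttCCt
EXOSC5: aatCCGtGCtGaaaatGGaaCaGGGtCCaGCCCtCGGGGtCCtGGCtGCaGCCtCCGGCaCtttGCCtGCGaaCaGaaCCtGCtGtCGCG
UPF2: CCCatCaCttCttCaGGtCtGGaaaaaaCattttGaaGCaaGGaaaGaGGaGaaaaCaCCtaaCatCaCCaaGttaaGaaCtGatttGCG
UPF1: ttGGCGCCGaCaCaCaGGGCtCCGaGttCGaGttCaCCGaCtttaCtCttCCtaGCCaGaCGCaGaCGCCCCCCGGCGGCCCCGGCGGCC
The first of each pair of lines belongs to the member of its class with less GC and the second to the one with more. Over all exons in GENCODE 44, GC content was 36.8% in CNOT6L against 57.3% in CNOT3, 37.1% in XRN1 against 59.5% in EDC4, 36.8% in EXOSC8 against 54.6% in EXOSC5, and 41.2% in UPF2 against 59.0% in UPF1. The exons behind the deposited counts can differ from these, so the GC values of EXOSC8 and EXOSC5 are uncertain.

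Gene counts summed to between 26792409 and 35477983 per library. RBM47 itself stood at 1.91, 2.33 and 1.94 FPKM in NC and 131.3, 130.4 and 127.0 FPKM in RBM47-OE (log2 fold change 5.90, SE 0.0964, edgeR adjusted p = 1.7e-25), which fits the labels of all 6 libraries. The 5 epithelial markers of this line lay between 12.9 and 1057 FPKM. Of 4 markers of other cell types, 3 were in the FPKM table and reached at most 1.72 FPKM.

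Of the 52 members, 16 were higher and 13 lower in RBM47-OE at an edgeR adjusted p under 0.05, and 23 passed in neither direction. Over all genes tested the corresponding shares were 19.1% higher and 16.9% lower, against 30.8% and 25% of the members. Every member had a mean of at least 409.7 counts, while the genes tested include ones with far fewer, in which a change is harder to call. The shares here and by class below are therefore not compared at like depth, and no excess is read from them. Changes were small: the median absolute log2 fold change was 0.21 for the members and 0.24 for all genes tested, and the median signed value was 0.02 against 0.00, and -0.03 for the members with the GC offset described next. The members' median was 0.06 when RBM47-OE replicate 1 was left out and 0.01 when replicate 3 was, and leaving out NC replicate 2 or 3 gave 0.04 or 0.00. Between NC and RBM47-OE the libraries did not overlap in CPM (counts divided by library size, scaled by the TMM factors) for 20 members that were higher and 17 that were lower, where the shares over all genes were 23.2% and 23.4%. Of the 29 members that passed, 28 were without overlap, the exception being UPF2. XRN1 alone also passed the thresholds of the study (p under 0.01 with a fold change beyond 1.5), which 2.38% of all genes tested passed. In these bulk libraries, fewer cells of a kind and less RNA of a gene per cell cannot be told apart.

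The fold changes followed exonic GC content in the whole table, so the results below are given beside a second edgeR fit in which a GC curve was fitted for each library and used as an offset. In that fit 6% of all genes tested were higher and 8.46% lower, and 3 members were higher (CNOT10, XRN1 and DIS3L) and 9 lower, among them CNOT9, DCP2, EXOSC2, EXOSC3, EXOSC4, EXOSC6, EXOSC7 and SMG8. Both fits called 9 members in the same direction. Higher members made up 55.2% of the calls without the offset and 25% with it, beside 53.1% and 41.5% over all genes tested. When libraries were scaled by their totals alone the shares were 80.8% for the members and 66.2% for all genes. That scaling moved the median of all genes to 0.06 and gave 21 higher and 5 lower members. Limma on log2(FPKM + 1) gave 16 higher and 4 lower members, or 80% higher, beside 64.4% of the calls over all genes. Without NC replicate 1, 2 or 3 the lower members numbered 7, 4 and 6, and without RBM47-OE replicate 1 there were 22 higher and 13 lower. CNOT10, XRN1 and EXOSC4 were called in the same direction in all 16 alternative fits at an adjusted p under 0.05.

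**Figure D1:**
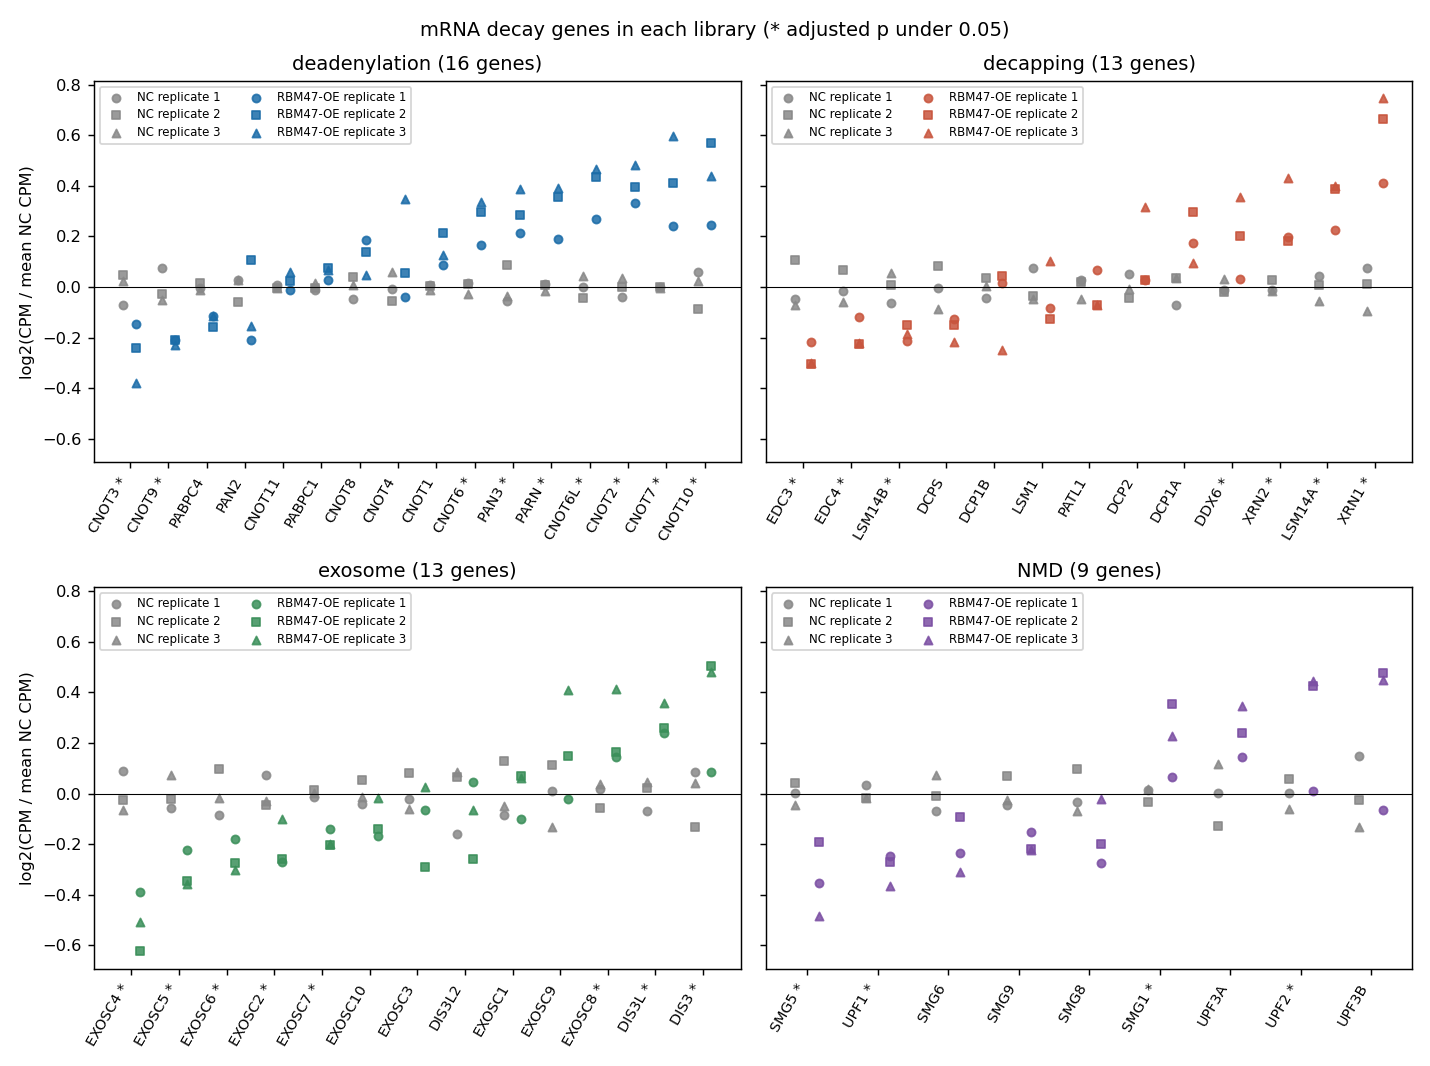
Log2 ratio of a member's CPM in each library to its mean CPM in the 3 NC libraries, for 51 members in 4 panels by class, with members ordered by their fitted log2 fold change. Grey symbols are NC libraries, coloured symbols RBM47-OE libraries, and an asterisk marks an edgeR adjusted p under 0.05; RBM47-OE replicate 1 lies nearest to NC for most genes on the right of each panel.

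Of the deadenylation genes 7 of 16 were higher (43.8%, beside 19.1% of all genes), 2 lower (12.5%, beside 16.9%) and 7 not called. Their median log2 fold change was 0.14. With the GC offset 1 was higher and 1 lower, and the median was 0.02. The higher members included 3 of the 4 deadenylases of CCR4-NOT (CNOT6, CNOT6L and CNOT7), the poly(A)-specific ribonuclease PARN and PAN3, the adaptor of PAN2. The lower members were CNOT3 and CNOT9, which have no nuclease activity of their own.

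CNOT1, the scaffold on which CCR4-NOT assembles, stood at 255, 255 and 252 CPM in NC and 270.1, 295 and 277 CPM in RBM47-OE. The groups did not overlap, but the difference did not pass (log2 fold change 0.14, SE 0.0688, edgeR adjusted p = 0.10). It passed by limma at both pseudocounts tried (1 and 0.1 FPKM), when libraries were scaled by their totals, and in the fit that left out RBM47-OE replicate 1 (0.18, adjusted p = 0.013). It was 0.00 (adjusted p = 0.99) with the GC offset. CNOT7, a catalytic subunit at chr8:17224966-17246878, was measured at 92, 92.1 and 91.8 CPM in NC and 109, 122 and 139 CPM in RBM47-OE. The 3 NC libraries lay almost on top of each other and every RBM47-OE library was above them (log2 fold change 0.42, SE 0.079, edgeR adjusted p = 0.00029), while the value with the offset was 0.06 (adjusted p = 0.50). Its paralog CNOT8 gave 53.7, 57.1 and 55.8 CPM in NC and 63.2, 61.2 and 57.4 CPM in RBM47-OE. The highest NC library and the lowest RBM47-OE library were almost level, and the change did not pass (log2 fold change 0.13, SE 0.0737, edgeR adjusted p = 0.19).

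CNOT6 and CNOT6L, the catalytic subunits of the other family in the complex, behaved alike in direction. CNOT6 was at 77.7, 77.4 and 75.3 CPM in NC and 86.1, 94.3 and 96.8 CPM in RBM47-OE. All RBM47-OE libraries were above all NC libraries (log2 fold change 0.27, SE 0.0717, edgeR adjusted p = 0.0052), and the sign turned with the offset, to -0.03 (adjusted p = 0.76). CNOT6L was at 29, 28.2 and 29.9 CPM in NC and 35, 39.2 and 40.1 CPM in RBM47-OE. It rose in all 3 RBM47-OE libraries as well (log2 fold change 0.39, SE 0.0844, edgeR adjusted p = 0.00095) and was 0.04 (adjusted p = 0.77) with the offset. CNOT10, at chr3:32685145-32773875, forms a module with CNOT11 on the end of CNOT1 and was at 33.3, 30.1 and 32.5 CPM in NC and 37.9, 47.5 and 43.3 CPM in RBM47-OE. It had the largest rise of the class (log2 fold change 0.43, SE 0.0887, edgeR adjusted p = 0.00072) and was still called with the offset, at 0.30 (adjusted p = 0.0076).

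CNOT3, a subunit of the NOT module at chr19:54137749-54155681, was at 66.9, 72.6 and 71.4 CPM in NC and 63.6, 59.4 and 54.1 CPM in RBM47-OE. All RBM47-OE libraries lay below all NC libraries (log2 fold change -0.25, SE 0.0765, edgeR adjusted p = 0.012), and with the offset the value was -0.07 (adjusted p = 0.44); the call was also lost without NC replicate 2 or 3 or RBM47-OE replicate 3, with adjusted p between 0.061 and 0.083. CNOT9, which binds peptides of proteins that recruit the complex and lies at chr2:218568580-218597080, was at 96.8, 90.1 and 88.5 CPM in NC and 79.4, 79.4 and 78.2 CPM in RBM47-OE. The RBM47-OE libraries lay close together and below all NC libraries (log2 fold change -0.22, SE 0.0703, edgeR adjusted p = 0.018), and the fall was larger with the offset, -0.29 (adjusted p = 0.0014). Without NC replicate 1 or 2 its call was lost (adjusted p = 0.14 and 0.065), so that without NC replicate 2 the class held 0 lower members by edgeR, and 2 at an unadjusted p under 0.05.

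PAN2, the catalytic subunit of the complex that trims long tails, was at 14, 13.2 and 14 CPM in NC and 11.9, 14.8 and 12.4 CPM in RBM47-OE. Its groups overlapped and no change was detected (log2 fold change -0.08, SE 0.11, edgeR adjusted p = 0.62). PAN3 was at 24.4, 26.9 and 24.7 CPM in NC and 29.4, 30.8 and 33.1 CPM in RBM47-OE. Its groups were apart (log2 fold change 0.30, SE 0.0878, edgeR adjusted p = 0.01), though the call was lost without NC replicate 1 or 3 (adjusted p = 0.063 and 0.060) and with the offset, 0.05 (adjusted p = 0.74). PARN was at 42.1, 42 and 41.3 CPM in NC and 47.8, 53.6 and 54.9 CPM in RBM47-OE. Its NC libraries lay close together and all RBM47-OE libraries were higher (log2 fold change 0.32, SE 0.0784, edgeR adjusted p = 0.0029), with 0.16 (adjusted p = 0.08) under the offset. PABPC1, the main cytoplasmic poly(A)-binding protein, was at 1866, 1880.0 and 1902 CPM in NC and 1922, 1984 and 1971 CPM in RBM47-OE. The groups did not overlap, yet the difference was small and did not pass (log2 fold change 0.06, SE 0.0728, edgeR adjusted p = 0.58), and reads of its many near-identical copies make its level uncertain.

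CNOT2, the partner of CNOT3 in the NOT module, had a log2 fold change of 0.40 and was called, with 0.05 (adjusted p = 0.66) under the offset. CNOT4, CNOT11 and PABPC4 were not called, at 0.13, 0.02 and -0.13. Mean FPKM in NC, which is scaled by gene length, ranged from 1.63 for PAN2 to 169.9 for PABPC1. Ranks between genes by FPKM depend on the length used. CNOT7 has 10941 exonic bases and CNOT8 has 3929, and in CPM CNOT7 stood above CNOT8. Among the deadenylases CNOT8 (12.2 ± 0.421 in NC and 14 ± 0.664 in RBM47-OE, SD, n = 3 each) and CNOT6 (10.1 ± 0.154 in NC and 12.7 ± 0.984 in RBM47-OE) stood above CNOT7 (7.24 ± 0.03 in NC and 10.2 ± 1.36 in RBM47-OE), PARN (3.88 ± 0.0361 in NC and 5.08 ± 0.459 in RBM47-OE) and CNOT6L (2.67 ± 0.0764 in NC and 3.68 ± 0.323 in RBM47-OE).

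Of the decapping and 5′ to 3′ decay genes 4 of 13 were higher, 3 lower and 6 not called, with a median log2 fold change of -0.02 that turned to 0.04 with scaling by library totals, to 0.00, 0.01 and 0.03 when RBM47-OE replicate 1, 2 or 3 was left out, and to 0.01 without NC replicate 1, and was -0.05 without NC replicate 3. The calls came to 30.8% higher and 23.1% lower, beside 19.1% and 16.9% of all genes tested. With the GC offset 1 member of the class was higher and 1 lower, and the median was -0.01. The higher members were both exonucleases, XRN1 and XRN2, together with the helicase DDX6 and its binding partner LSM14A. The lower ones were the decapping enhancers EDC3 and EDC4 and LSM14B, the paralog of LSM14A, and their number fell to between 0 and 1 in every fit that left out a library other than RBM47-OE replicate 1. Without NC replicate 2 it was 0, with 1 at an unadjusted p under 0.05.

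DCP2, the enzyme that removes the cap, was at 58, 54.3 and 55.7 CPM in NC and 57.2, 57.2 and 69.7 CPM in RBM47-OE. Only RBM47-OE replicate 3 was clearly above NC, and the change was not called (log2 fold change 0.13, SE 0.0814, edgeR adjusted p = 0.22). With the GC offset it was called in the other direction, -0.21 (adjusted p = 0.032), and without RBM47-OE replicate 1 it was called higher at 0.19 (adjusted p = 0.049). DCP1A, the activator of DCP2, was at 46.6, 50.2 and 50.2 CPM in NC and 55.3, 60.2 and 52.3 CPM in RBM47-OE. Its groups were apart without passing (log2 fold change 0.19, SE 0.0775, edgeR adjusted p = 0.056), whereas DESeq2 called it at 0.20 (adjusted p = 0.046), as did the fits without RBM47-OE replicate 1 or 3; the value with the offset was 0.05 (adjusted p = 0.69).

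EDC3, at chr15:74630558-74696292, was at 59.1, 65.9 and 58.2 CPM in NC and 52.6, 49.5 and 49.6 CPM in RBM47-OE. All 3 RBM47-OE libraries were below NC (log2 fold change -0.27, SE 0.076, edgeR adjusted p = 0.0066), with -0.15 (adjusted p = 0.11) under the offset and an adjusted p of 0.096 without NC replicate 2. EDC4, the scaffold of the decapping complex at chr16:67873052-67884499, was at 102, 108 and 98.7 CPM in NC and 94.7, 87.9 and 88.1 CPM in RBM47-OE. The groups did not overlap (log2 fold change -0.19, SE 0.0709, edgeR adjusted p = 0.041), but the value was 0.01 (adjusted p = 0.93) with the offset and only the fit without RBM47-OE replicate 1 kept the call among those with a library left out, the others giving adjusted p between 0.075 and 0.23. DDX6, a helicase that represses translation and stimulates decapping, was at 174, 172 and 179 CPM in NC and 179, 201 and 224 CPM in RBM47-OE. RBM47-OE replicate 1 was close to NC and the other two were higher (log2 fold change 0.20, SE 0.0765, edgeR adjusted p = 0.04), with the same loss of the call in 5 of 6 such fits and -0.05 (adjusted p = 0.66) under the offset.

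LSM14A, at chr19:34172504-34229288, was at 116, 114 and 109 CPM in NC and 132, 148 and 149 CPM in RBM47-OE. Each RBM47-OE library exceeded each NC library (log2 fold change 0.34, SE 0.0717, edgeR adjusted p = 0.00083), and the value was 0.08 (adjusted p = 0.34) with the offset. XRN1, the cytoplasmic 5′ to 3′ exonuclease at chr3:142306607-142448062, was at 30.7, 29.4 and 27.3 CPM in NC and 38.7, 46.1 and 48.8 CPM in RBM47-OE. It showed the largest change of all members, with every RBM47-OE library above the highest NC library (log2 fold change 0.61, SE 0.0905, edgeR adjusted p = 4.5e-05), and it was higher with the offset too, 0.26 (adjusted p = 0.011). XRN2, its nuclear counterpart, had a log2 fold change of 0.27 and was called, with 0.08 (adjusted p = 0.44) under the offset.

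LSM14B was called lower at -0.18, but was -0.01 (adjusted p = 0.92) with the offset, and its call was lost in 5 of 6 fits with a library left out (adjusted p between 0.060 and 0.21). DCP1B, PATL1, LSM1 and the scavenger enzyme DCPS were not called, at -0.06, -0.02, -0.03 and -0.17, and the first 3 of these turned above 0 with scaling by library totals. Mean FPKM in NC was the lowest of the class in XRN1 and the highest in XRN2. XRN1 was at 2.09 ± 0.112 in NC and 3.37 ± 0.445 in RBM47-OE, and XRN2 at 39.6 ± 0.744 in NC and 50.3 ± 4.93 in RBM47-OE.

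Of the exosome genes 3 of 13 were higher (23.1%, beside 19.1% of all genes), 5 lower (38.5%, beside 16.9%) and 5 not called. Their median log2 fold change was -0.10. The median was -0.02 without RBM47-OE replicate 2, -0.06 without NC replicate 2 and -0.04 with scaling by library totals. The exosome was the class with the largest number of calls under the GC offset: 1 higher and 5 lower, with a median of -0.15. Among the subunits of the barrel, EXOSC4, EXOSC5, EXOSC6 and EXOSC7 fell, EXOSC8 rose and EXOSC9 was not called; in the cap, EXOSC2 fell while EXOSC1 and EXOSC3 were not called. Of the nucleases, DIS3 and DIS3L rose and EXOSC10 and DIS3L2 were not called.

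DIS3, the catalytic subunit in the nucleus at chr13:72752169-72782096, was at 57, 49 and 55.3 CPM in NC and 57, 76.3 and 75.1 CPM in RBM47-OE. RBM47-OE replicate 1 was level with the highest NC library and the other two were well above it (log2 fold change 0.37, SE 0.0922, edgeR adjusted p = 0.003), and the value was 0.07 (adjusted p = 0.55) with the offset. DIS3L, the cytoplasmic paralog at chr15:66293217-66333898, was at 17.5, 18.6 and 18.9 CPM in NC and 21.6, 21.9 and 23.4 CPM in RBM47-OE. The 3 RBM47-OE libraries were close together and above NC (log2 fold change 0.29, SE 0.0934, edgeR adjusted p = 0.019), with the same size under the offset, 0.30 (adjusted p = 0.014). Its call was lost without NC replicate 1 or 2 or RBM47-OE replicate 3 (adjusted p between 0.060 and 0.097).

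EXOSC4, a barrel subunit at chr8:144078648-144080648, was at 69.8, 64.5 and 62.7 CPM in NC and 50.1, 42.6 and 46.2 CPM in RBM47-OE. It had the largest fall of all members, the RBM47-OE libraries all lying below the lowest NC library (log2 fold change -0.50, SE 0.0787, edgeR adjusted p = 6.5e-05), and was called with the offset, -0.31 (adjusted p = 0.0029). Of its exonic bases 56.7% are shared with another protein-coding gene on the same strand that the count table does not list, and 18.2% with an antisense gene. EXOSC5, at chr19:41386371-41397362, was at 61.9, 63.4 and 67.8 CPM in NC and 55.1, 50.6 and 50.2 CPM in RBM47-OE. All RBM47-OE libraries were below NC (log2 fold change -0.31, SE 0.075, edgeR adjusted p = 0.0025), and the value with the offset was -0.15 (adjusted p = 0.079).

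EXOSC10, the nuclear exonuclease, was at 75.6, 80.9 and 77.2 CPM in NC and 69.4, 70.8 and 76.9 CPM in RBM47-OE. The groups overlapped and no change was detected (log2 fold change -0.11, SE 0.0723, edgeR adjusted p = 0.26), and 36.7% of its exonic bases are shared with an antisense gene. DIS3L2, which degrades uridylated RNA without the exosome, was at 29, 33.9 and 34.3 CPM in NC and 33.5, 27.1 and 31 CPM in RBM47-OE. Its groups overlapped (log2 fold change -0.09, SE 0.0937, edgeR adjusted p = 0.50).

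EXOSC6, EXOSC2 and EXOSC7 were lower at -0.25, -0.21 and -0.18 (edgeR adjusted p = 0.018, 0.035 and 0.047). With the offset they were at -0.33 (adjusted p = 0.0031), -0.20 (adjusted p = 0.035) and -0.17 (adjusted p = 0.04). EXOSC6 lost its call without NC replicate 2 or 3 or RBM47-OE replicate 2 (adjusted p between 0.056 and 0.15). EXOSC2 lost it whichever NC replicate was left out and without RBM47-OE replicate 1 or 2 (between 0.0501 and 0.19). EXOSC7 lost it whichever NC replicate was left out and without RBM47-OE replicate 2 or 3 (between 0.085 and 0.17). EXOSC8 was higher at 0.24 (edgeR adjusted p = 0.042) but -0.11 (adjusted p = 0.38) with the offset, a change of sign. Its call was lost whichever NC replicate was left out and without RBM47-OE replicate 3 (adjusted p between 0.090 and 0.22). EXOSC3 was not called at -0.10 and was called with the offset, -0.30 (adjusted p = 0.021). The offset used GC content over all exons, 45.8% in EXOSC6 and 42.8% in EXOSC3, whereas their coding sequences held 78.4% and 51.5%. Whether their offset values depend on this choice was not tested. EXOSC1 and EXOSC9 were not called, at 0.01 and 0.19, but EXOSC9 was called higher without RBM47-OE replicate 1 (0.29, adjusted p = 0.0077). With a library left out, the lower members of this class numbered between 2 and 4 and the higher ones between 1 and 4: without NC replicates 1, 2 and 3 there were 3, 2 and 2 lower, without RBM47-OE replicate 2 there were 2 lower, and without NC replicate 1 or 2 or RBM47-OE replicate 3 there was 1 higher. FPKM in NC ranged from 2.46 for DIS3L2 to 40.8 for EXOSC4 and 40.5 for EXOSC5.

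**Figure D2:**
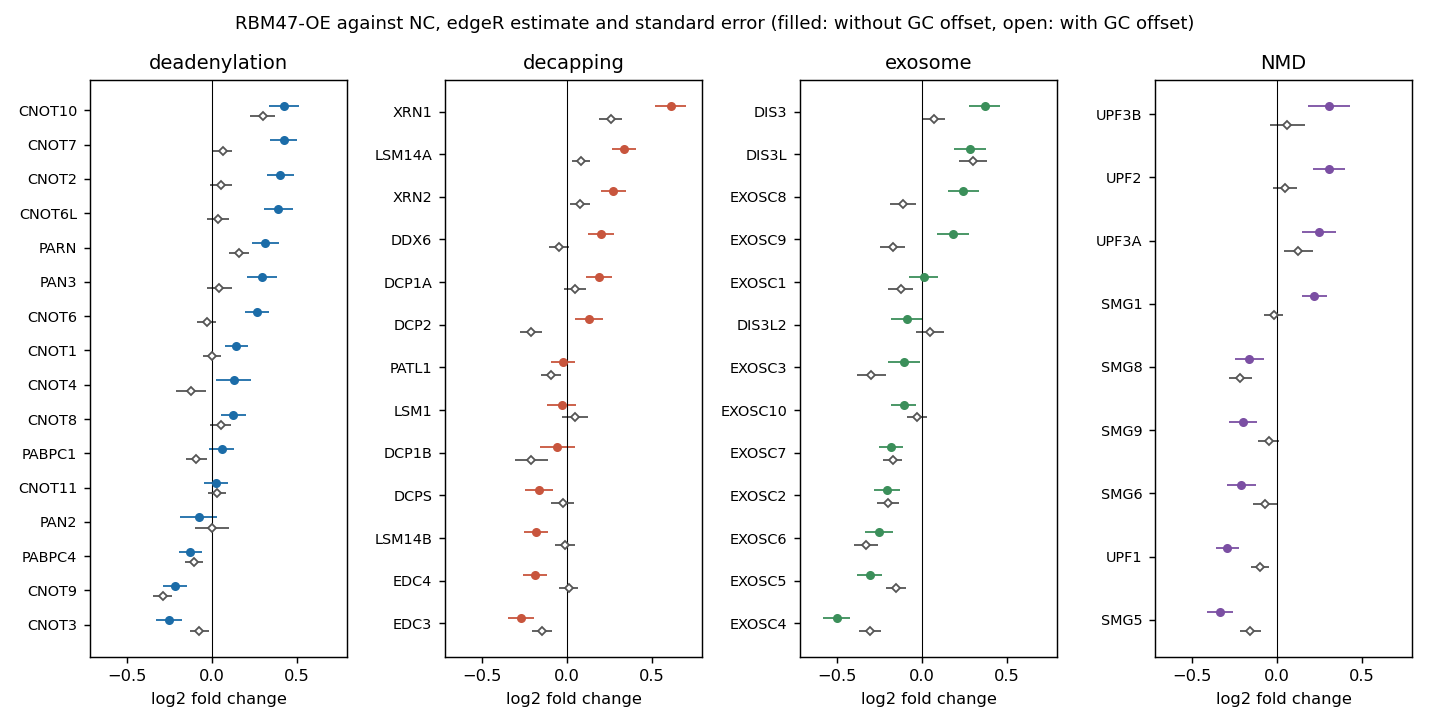
Fitted log2 fold change of 51 members, RBM47-OE against NC, with bars of 1 standard error; filled circles are the edgeR fit without and open diamonds the fit with the GC offset. Most members at the top of each panel move toward 0 with the offset, CNOT10 only in part. DIS3L, EXOSC2 and EXOSC7 keep a similar value, and CNOT9 and EXOSC6 lie further from 0.

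Of the NMD genes 2 of 10 were higher (20%, beside 19.1% of all genes), 3 lower (30%, beside 16.9%) and 5 not called. Their median log2 fold change was -0.18, or -0.12 with scaling by library totals. With the GC offset none was higher, none of them had a positive change at an unadjusted p under 0.05, and 2 were lower, SMG8 among them, while DESeq2 without an offset gave 2 higher and 3 lower. The median with the offset was -0.06. The lower members included the helicase UPF1 and SMG5, an adaptor that joins phosphorylated UPF1 to the decay enzymes. The higher members were UPF2 and the kinase SMG1.

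UPF1, the central helicase of the route at chr19:18831959-18868230, was at 177, 170.4 and 170.2 CPM in NC and 145, 143 and 134 CPM in RBM47-OE. The RBM47-OE libraries were all below NC (log2 fold change -0.29, SE 0.0689, edgeR adjusted p = 0.0019), with -0.10 (adjusted p = 0.24) under the offset. UPF2, which bridges UPF1 to the UPF3 proteins, was at 36, 37.5 and 34.6 CPM in NC and 36.3, 48.4 and 49.1 CPM in RBM47-OE. RBM47-OE replicate 1 lay within the NC range and the other two were above it (log2 fold change 0.31, SE 0.0957, edgeR adjusted p = 0.014), the offset gave 0.05 (adjusted p = 0.73), and the call was lost without NC replicate 3 or RBM47-OE replicate 2 or 3 (adjusted p between 0.073 and 0.10).

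UPF3A was at 17.2, 15.8 and 18.7 CPM in NC and 19.1, 20.4 and 21.9 CPM in RBM47-OE. The groups did not overlap, but the change did not pass (log2 fold change 0.25, SE 0.0999, edgeR adjusted p = 0.055). UPF3B, the paralog that binds the exon junction complex more tightly, was at 16.2, 14.4 and 13.3 CPM in NC and 14, 20.4 and 19.97 CPM in RBM47-OE. Its groups overlapped through RBM47-OE replicate 1 (log2 fold change 0.31, SE 0.123, edgeR adjusted p = 0.052). Without RBM47-OE replicate 1 both passed, UPF3A at 0.30 (adjusted p = 0.014) and UPF3B at 0.47 (adjusted p = 0.00056), and UPF3B also passed without NC replicate 1 (adjusted p = 0.040). With the offset they were 0.13 (adjusted p = 0.37) and 0.06 (adjusted p = 0.76).

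SMG1, the kinase that phosphorylates UPF1, was at 134, 129.7 and 135 CPM in NC and 139, 169.5 and 156 CPM in RBM47-OE. All RBM47-OE libraries were above NC, the first by a small margin (log2 fold change 0.22, SE 0.075, edgeR adjusted p = 0.023), the offset gave -0.02 (adjusted p = 0.87), and the call was lost whichever NC replicate was left out and without RBM47-OE replicate 2 (adjusted p between 0.072 and 0.14). The table lists 7 pseudogenes of SMG1, whose counts came to between 15.2% and 19.0% of those of SMG1, so its value is uncertain. SMG5, at chr1:156249224-156282825, was at 92.2, 94.7 and 89.3 CPM in NC and 72.2, 80.6 and 65.9 CPM in RBM47-OE. It fell in all 3 RBM47-OE libraries (log2 fold change -0.34, SE 0.0767, edgeR adjusted p = 0.0015), with -0.16 (adjusted p = 0.11) under the offset. SMG6, the endonuclease of the route, was at 38.2, 39.8 and 42.1 CPM in NC and 34, 37.5 and 32.3 CPM in RBM47-OE. The groups did not overlap and the change just missed the threshold (log2 fold change -0.21, SE 0.0838, edgeR adjusted p = 0.053), passing without RBM47-OE replicate 2 (-0.27, adjusted p = 0.030), with -0.07 (adjusted p = 0.55) under the offset; 22.9% of its exonic bases are shared with HIC1 on the other strand.

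SMG8 and SMG9, the regulators of SMG1, were not called at -0.16 and -0.20, and SMG8 was called with the offset at -0.22 (adjusted p = 0.042) and without RBM47-OE replicate 3 (adjusted p = 0.038), and SMG9 without RBM47-OE replicate 1 (adjusted p = 0.020). Without NC replicate 2 or RBM47-OE replicate 3 there was 1 higher NMD member, without NC replicate 3 or RBM47-OE replicate 2 there was 0 (3 and 2 at an unadjusted p under 0.05), and without RBM47-OE replicate 1 there were 4. FPKM in NC ranged from 2.58 for UPF3A to 17.3 for UPF1.

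Across the 52 members the log2 fold change ran against exonic GC content, with a Spearman rho of -0.82, and across the 16229 genes tested with a known GC content rho was -0.63. These are correlations across genes that share the same 6 libraries and are given as a description. Within classes rho was -0.77 for deadenylation (n = 16), -0.87 for decapping (n = 13), -0.63 for the exosome (n = 13) and -0.94 for NMD (n = 10). The relation was present in each RBM47-OE library against the NC mean (-0.71, -0.75 and -0.83), while each NC library against the other NC libraries gave -0.28, 0.21 and -0.02. With the offset rho over the members was -0.25. The median exonic GC content was 41.2% in the members called higher and 54.6% in those called lower. The part of GC content in the members' changes was not tested.

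Grouped by the exonic GC content of all genes, with boundaries at 44.5% and 54.1%, the 24 members of the lower group held 14 of the 16 higher calls and 0 lower ones (0 at an unadjusted p under 0.05, and 0 by DESeq2), beside 48.8% higher and 1.29% lower of all genes in that group. The 8 members of the upper group held 7 lower calls and 0 higher ones (again 0 unadjusted and by DESeq2), beside 34.9% lower and 0.481% higher. The 20 members between held 2 higher and 6 lower calls, beside 8.01% and 14.5%. The higher ones there were CNOT10 and DIS3L, and the lower ones included CNOT9, EDC3, EXOSC2, EXOSC6 and EXOSC7. CNOT6L, XRN1, EXOSC8 and UPF2, whose stretches were shown first in each pair, were all called higher, and CNOT3, EDC4, EXOSC5 and UPF1 were all called lower.

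**Figure D3:**
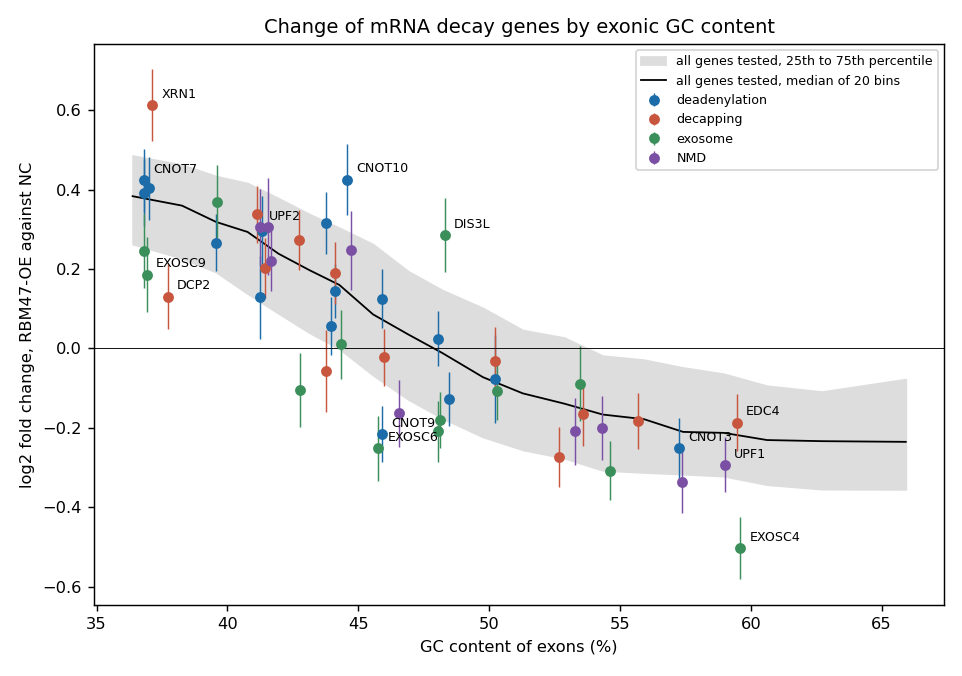
Fitted log2 fold change with 1 standard error against the GC content of a gene's exons in percent, for 51 members coloured by class. The black line and grey band are the median and the 25th to 75th percentile of all genes tested in 20 bins of GC content; the members' values fall with GC content as the band does, XRN1, CNOT10 and DIS3L lying above it and CNOT9, EXOSC6, DCP2, EXOSC3 and EXOSC4 among those below it.

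Paralogs and partners were set against each other within each library, as the share of the first gene in the summed FPKM of the pair. The size of a share also depends on the gene lengths by which FPKM is scaled. Of 12 pairs, 10 did not overlap between the groups, and the first gene had the lower exonic GC content in 10 of the 12. The shares are a description with no test, and no such count was made over other pairs of genes, so nothing particular to these pairs is read from it. Correction for GC content was made on log2 CPM and not on the FPKM shares. In the difference of corrected log2 CPM between the genes of a pair, 4 pairs did not overlap (CNOT2 with CNOT3, CNOT10 with CNOT11, DCP1A with DCP1B, and XRN1 with XRN2).

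CNOT2 made up 19.9%, 19.1% and 19.7% in NC and 25.3%, 27.5% and 30.6% in RBM47-OE of the pair it forms with CNOT3. All NC libraries were below all RBM47-OE libraries. Of the paralogs LSM14A and LSM14B, LSM14A made up 54%, 52.2% and 50.3% in NC and 59.6%, 61.3% and 62.1% in RBM47-OE. UPF2 made up 22.9%, 24.3% and 22.8% in NC and 26.7%, 33% and 34.8% in RBM47-OE of the pair with UPF1, again without overlap. XRN1 remained the minor exonuclease beside XRN2, with 5.3%, 4.98% and 4.77% in NC and 5.77%, 6.87% and 6.17% in RBM47-OE. CNOT7 against CNOT8 gave 38.1%, 36.7% and 37.1% in NC and 38.2%, 41.8% and 46.5% in RBM47-OE, where RBM47-OE replicate 1 lay just above the highest NC library. DIS3 against DIS3L gave 62.1%, 57% and 59.5% in NC and 57%, 63.6% and 61.6% in RBM47-OE, and these groups overlapped, as did those of UPF3A against UPF3B.

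**Figure D4:**
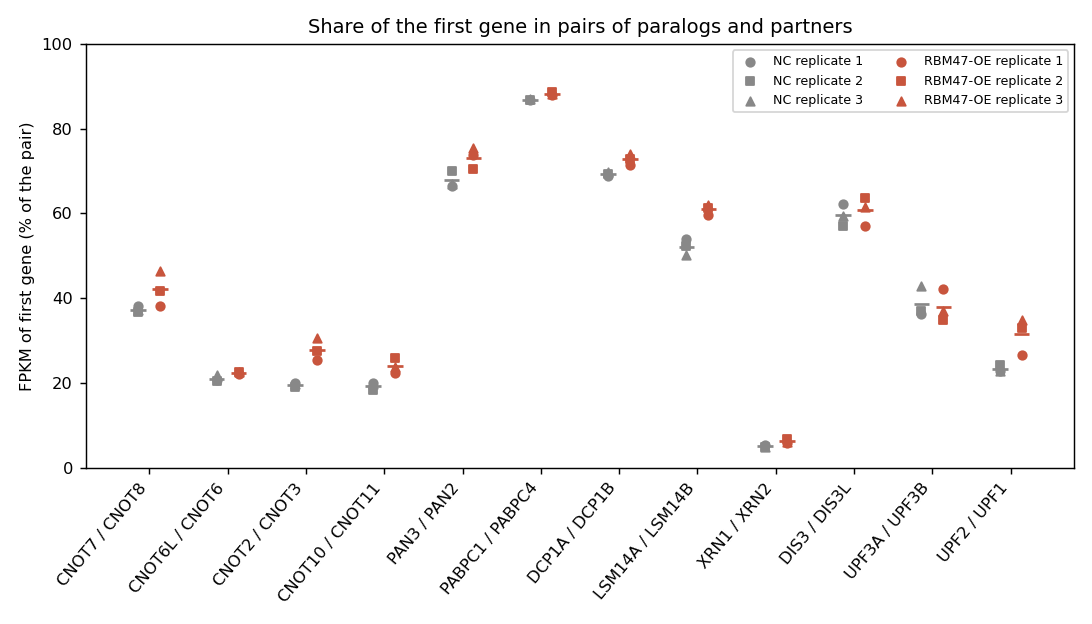
Share of the first gene in the summed FPKM of 12 pairs of paralogs or partners, in percent, for each library; grey symbols are NC, red symbols RBM47-OE, and short lines the group means. The groups are apart in 10 pairs and overlap for DIS3 with DIS3L and for UPF3A with UPF3B.

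Other genes of the decay routes were counted as a list of 42, all tested, which holds the rest of the LSM ring, deadenylation adaptors, the SKI and NEXT helicase complexes, terminal nucleotidyltransferases, exon junction proteins and release factors. Of these 42 genes 12 were higher and 9 lower, beside 19.1% and 16.9% of all genes tested. The median log2 fold change of the list was 0.03. It was 0.07 and -0.02 when RBM47-OE replicate 1 or 3 was left out, 0.01 without NC replicate 2 and 0.09 with scaling by library totals. With the GC offset 1 was higher and 12 were lower, with a median of -0.08, beside 6% higher and 8.46% lower of all genes tested. HBS1L, a ribosome rescue factor, was at 63.1, 62.6 and 60.3 CPM in NC and 77.6, 91.9 and 95.5 CPM in RBM47-OE, without overlap (log2 fold change 0.51, SE 0.0787, edgeR adjusted p = 5.6e-05), and with the offset 0.16 (adjusted p = 0.054). NBAS, an NMD factor that also acts in vesicle transport, was at 50.5, 44.3 and 47.6 CPM in NC and 63.1, 63.9 and 64.1 CPM in RBM47-OE, and it was the higher gene under the offset (log2 fold change 0.43, SE 0.0751, edgeR adjusted p = 0.00018), and with the offset 0.20 (adjusted p = 0.036). DHX34, a helicase that promotes NMD, was at 34.1, 32.6 and 34 CPM in NC and 21.6, 22.9 and 23.1 CPM in RBM47-OE, with all RBM47-OE libraries below NC (log2 fold change -0.58, SE 0.0852, edgeR adjusted p = 4.5e-05), and with the offset -0.36 (adjusted p = 0.0035). LSM2, a subunit of the LSM ring, was at 60.8, 65 and 62.9 CPM in NC and 50.8, 42.9 and 45.5 CPM in RBM47-OE and fell in all RBM47-OE libraries (log2 fold change -0.44, SE 0.0781, edgeR adjusted p = 0.00019), and with the offset -0.31 (adjusted p = 0.0019).

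A list of 8 genes whose transcripts are known substrates of NMD gave 1 higher, 2 lower and 5 not called. Over all genes tested 19.1% were higher and 16.9% lower. The median log2 fold change of the list was -0.07. That median was -0.03, -0.25 and 0.05 when RBM47-OE replicate 1, 2 or 3 was left out, and 0.00 with scaling by library totals. ZFAS1, a noncoding snoRNA host gene, was at 198, 209.7 and 202 CPM in NC and 242, 232 and 249 CPM in RBM47-OE. It was higher without overlap (log2 fold change 0.25, SE 0.0688, edgeR adjusted p = 0.0067), and with the offset 0.22 (adjusted p = 0.0099). GADD45A, the next by p-value on that side, was not called at 0.07, its RBM47-OE libraries lying on both sides of NC. SNHG12, also a snoRNA host gene, was at 21.5, 20.8 and 21.9 CPM in NC and 15.5, 16.8 and 15.9 CPM in RBM47-OE and was lower in all 3 RBM47-OE libraries (log2 fold change -0.41, SE 0.0947, edgeR adjusted p = 0.0016), and with the offset -0.31 (adjusted p = 0.012). TBL2 was at 61.2, 60.7 and 64 CPM in NC and 54.9, 56.8 and 50.9 CPM in RBM47-OE, lower without overlap (log2 fold change -0.19, SE 0.0742, edgeR adjusted p = 0.044), and with the offset -0.08 (adjusted p = 0.43). With the offset 1 was higher and 2 were lower, GAS5 taking the place of TBL2, beside 6% and 8.46% of all genes tested.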

How the data were processed

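RNA of 3 NC and 3 RBM47-OE samples of HCT116 cells was measured by RNA-seq, and groups were taken from the sample labels. The authors trimmed reads and used HISAT2 for alignment to GRCh38. Their deposited counts, of reads with 1 mapping position, are not normalized. The FPKM values deposited by the authors are scaled by gene length and mapped fragments. The counting tool, annotation release and strand setting are not given in the sources used here, and the labels and the methods name different library kits, both stranded. No column of per-sample values was left unused.

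Counts were tested with edgeR 4.0.16 in R 4.3.3 (filterByExpr with minimum count 10 and minimum total count 15, TMM, quasi-likelihood test, condition as the only term), with Benjamini-Hochberg adjustment over 16260 genes and a threshold of 0.05. A GC offset was a loess curve (span 0.3) on exonic GC content from GENCODE 44, fitted for each library. In NC replicate 1, EXOSC8 had 623 counts and 6.00 FPKM with 13092 exonic bases, beside 875 counts, 5.89 FPKM and 4846 bases for CNOT10. EXOSC5 had 1627 counts and 38.8 FPKM with 3712 bases, beside 4086 counts, 39.11 FPKM and 3408 bases for XRN2. The exons behind the deposited values therefore differed from GENCODE 44 for some members, whose GC values and offset results are uncertain. The curve was fitted to the deviation of log2 CPM from the gene's mean over all libraries. It therefore takes out any difference between the groups that follows GC content, whatever its source. Alternatives were DESeq2 1.42.0, limma 3.58.1 on log2(FPKM + 1) or log2(FPKM + 0.1), other scalings, no filter, a replicate block and each library left out. The script was tested on simulated data. Depth was 26792409 to 35477983 counts per library, with at least 409.7 mean counts per member.

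The members and gene lists were chosen with earlier results of these data known. Values in every library are given for a core set chosen by role and, in each class, for up to 2 members with the largest rise and fall among those called, without overlap and averaging log2 CPM 3 or more, and, from the other lists, for the 2 smallest p-values on each side. Genes sharing at least 10% of exonic bases with another gene numbered 14 of the 52. Among them, EDC4, EXOSC7 and SMG8 share 21.3%, 13.6% and 11.3% with a gene on the same strand that the count table lists, so their values are uncertain. Of the NMD members, 1 is counted but not reported here by name.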

Additional observations from a re-analysis of the deposited data

How the results depend on the processing

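CNOT10, XRN1 and EXOSC4 were called in the same direction in all 16 alternative fits at an adjusted p under 0.05, the other called members lost the call in at least 1 of them, and 14 of the 29 called members were called with each library left out in turn. RBM47 kept its direction and call throughout. The cause of the changes below was not tested. The GC offset gave 3 higher and 9 lower members in all: 1 and 1 of deadenylation, 1 and 1 of decapping, 1 and 5 of the exosome, 0 and 2 of NMD, and 1 and 12 of the 42 other decay genes. With the replicate block added to it there were 3 and 8, with 0 higher in NMD, and the NMD substrates held 2 higher. Scaling by library totals gave 5 lower members, 0 of them in deadenylation, 1 in decapping and 2 in the exosome, with 4 higher in NMD and 1 lower NMD substrate, as RLE size factors also gave. Testing without the filter on low counts gave 8 lower members, with 1 in decapping and 3 in the exosome. Limma on log2(FPKM + 1) and on log2(FPKM + 0.1) each gave 4 lower members, with 0 in deadenylation, 0 in decapping and 2 in the exosome, 0 and 1 higher in NMD, 5 lower other decay genes and 1 lower NMD substrate. Limma without a filter gave 3 lower members (0, 0, 2 and 1 by class in the order above), 1 higher in the exosome, 0 higher in NMD, 6 higher other decay genes and 5 lower. At an unadjusted p under 0.05 the counts of 0 by limma were 2 lower in deadenylation, 1 lower in decapping and 4 or 3 higher in NMD, and 2 lower in deadenylation with library totals. The thresholds of the study left 1 higher member, XRN1, and 0 lower.

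The replicate numbers in the labels were not shown to pair the samples: deviations of same-numbered libraries from their group means correlated at -0.060, -0.015 and -0.016. With the replicate block edgeR gave 15 higher and 8 lower members, with 1 lower in decapping and 3 in the exosome.

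With 1 library left out the members numbered between 11 and 22 higher and between 4 and 13 lower. By class the higher and lower calls ranged between 6 and 8 and between 0 and 2 in deadenylation, 3 and 6 and 0 and 3 in decapping, 1 and 4 and 2 and 4 in the exosome, and 0 and 4 and 2 and 4 in NMD. The other decay genes ranged between 11 and 15 higher and between 5 and 10 lower, and the NMD substrates between 0 and 2 higher and 1 and 4 lower.

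The sign turned in 15 members, 5 of them called. With the GC offset, and with the block added, log2 fold changes were -0.031 and -0.031 for CNOT6, -0.046 and -0.047 for DDX6, 0.010 and 0.011 for EDC4, -0.11 and -0.11 for EXOSC8, and -0.019 and -0.020 for SMG1. Of the members not called they were -0.12 and -0.13 for CNOT4, -0.21 and -0.21 for DCP2 (called), 0.048 and 0.049 for DIS3L2, -0.13 and -0.12 for EXOSC1, -0.17 and -0.17 for EXOSC9, 0.048 and 0.045 for LSM1 and -0.092 and -0.092 for PABPC1, with 0.00094 for PAN2 under the offset alone. Library totals, limma at pseudocounts 1 and 0.1 and limma without a filter gave DCP1B 0.0067, 0.0071, 0.0078 and 0.0071, LSM1 0.030, 0.036, 0.038 and 0.036, and PATL1 0.039, 0.045, 0.047 and 0.045. With a library left out, values ranged from -0.11 to 0.029 in DCP1B, -0.031 to 0.080 in EXOSC1, -0.10 to 0.014 in LSM1 and -0.063 to 0.00085 in PATL1. The member with the fewest reads had a mean of 409.7 counts per library.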
